A study of Mus musculus with 15 samples.

Results

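The genes described here encode the cytosolic ribosomal proteins of mouse CD8+ T cells. They were taken from 2 deposited tables of FPKM, that is fragments per kilobase of exon scaled to the size of the library, by their symbols: every row named Rpl or Rps followed by a digit, together with Rplp0, Rplp1, Rplp2 and Rpsa, leaving out the ribosomal S6 kinases and pseudogene rows marked -ps. The rule found 81 genes of 11262 in the first table and the same 81 of 11211 in the second, and all 81 entered every test. Of these, 76 are canonical ribosomal proteins, 31 of the small (Rps) and 45 of the large (Rpl) subunit. The others are the paralogs Rpl22l1, Rps27l, Rpl7l1 and Rpl36al, and Rps19bp1, which fits the symbol rule but encodes a nucleolar protein that binds Rps19 and is not part of the ribosome. Fau and Gnb2l1 (Rack1) also encode 40S proteins and carry names outside the rule, so their values are given apart. Rpl26 was not among the rows used here.

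The libraries of the first table were made to ask what the PI3K subunit p110δ does during TCR activation, with LCMV-P14 mice whose transgenic TCR recognises the viral peptide gp33–41 (females of 9 to 13 weeks). Naive cells were sorted ex vivo as CD62L high and CD44 low. TCR cells had 24 h of peptide at 100 ng/ml, with IL-12 at 2 ng/ml and IL-2 at 20 ng/ml in the medium, and TCR + PI3Kdi cells had 10 µM IC87114, a p110δ inhibitor, on top of this. Lymph nodes of 3 mice were pooled for each replicate and divided over the 3 conditions, so inhibitor and TCR groups share both cytokines and naive cells had neither. The second table holds cytotoxic T lymphocytes (CTL) from the same sequencing lane, activated for 48 h, expanded for 4 days in 20 ng/ml IL-2, and on day 6 washed and kept with or without IL-2 for a further 24 h. Every group had 3 libraries. The titles of the CTL libraries, which name IL-2, set their groups, although another label gives IL3 and IL4 for replicates 2 and 3 of the IL-2 group. The tables were normalised separately, so all tests were made within a table.

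The eukaryotic ribosome holds a near-fixed set of proteins, made in equal numbers and assembled with ribosomal RNA in the nucleolus. Their mRNAs are among the most abundant in any cell, and most begin with a C followed by a run of pyrimidines, the 5′ terminal oligopyrimidine (TOP) motif. Through this motif their translation is switched on by mTORC1 and held back by the RNA-binding protein Larp1, so that mRNA level and protein output can differ. T cells leaving quiescence grow and make many new ribosomes before they divide.

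The TOP motif was looked for as a sequence feature that the symbol rule did not use, on the transcribed strand, as a C followed by at least 4 C or T. RefSeq start sequences (GRCm38.p6) matched 55 of the 76 canonical genes, and 13 of these, or 23.6%, had such a run exactly at an annotated start, compared with 3.12% of the 8404 genes of the first table that had a start sequence. Within 5 bases of a start the shares were 49.1% and 23.9%, and within 30 bases 89.1% and 65.8%. None of the 4 paralogs nor Rps19bp1 had a run exactly at the start, and Rpl22l1 and Rps27l had a run within 5 bases. The annotated starts were not checked against measured 5′ ends, so a missing run says only that these letters are not in the window. The windows below run from 10 bases before to 20 bases after the annotated start, 5′ to 3′, with the longest run that begins within 5 bases in capitals. They show 4 canonical genes whose mRNA fell on activation, then 4 genes whose mRNA rose. They are all named below, and they do not stand for all genes of their direction. Rps2, Rpl34 and Rpl7a rose and have a run within 5 bases, and Rps7, Rpl5 and Rps19 fell and have none. Over the members with a start sequence, a run within 5 bases was found in 14 of the 25 that fell after TCR activation (56%), in 4 of the 10 that rose (40%) and in 11 of the 25 that did not pass (44%). Rps24 and Rps27l have further annotated starts, and the first is shown.
Rps6, chr4:86857348-86857377, minus strand: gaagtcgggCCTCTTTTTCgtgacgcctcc
Rps15a, chr7:118116128-118116157, minus strand: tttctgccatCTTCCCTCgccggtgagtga
Rps18, chr17:33955646-33955675, minus strand: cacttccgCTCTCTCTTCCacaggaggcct
Rps24, chr14:24490668-24490697, plus strand: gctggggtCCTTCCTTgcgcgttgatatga
Rps27l, chr9:66946076-66946105, plus strand: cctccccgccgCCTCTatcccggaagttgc
Rpl7l1, chr17:46782637-46782666, minus strand: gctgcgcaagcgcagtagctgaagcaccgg
Rpl36al, chr12:69184048-69184077, minus strand: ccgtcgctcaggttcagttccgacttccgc
Rps19bp1, chr15:80264287-80264316, minus strand: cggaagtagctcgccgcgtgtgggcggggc

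Before the comparisons, 4 libraries have to be set apart because the ribosomal protein genes had another pattern in them than in their replicates: naive replicate 3, TCR replicate 1, and CTL in IL-2 replicates 2 and 3. The split was noticed in the data and no label records it. Over the 78 genes above the level used for this check, the deviation of naive replicate 3 from naive replicates 1 and 2 correlated with that of TCR replicate 1 from TCR replicates 2 and 3 (Pearson's r = 0.96) and with that of CTL in IL-2 replicates 2 and 3 from replicate 1 (r = 0.98). Over 5847 other genes the same correlations were 0.61 and 0.68, and no such pattern ran through the TCR + PI3Kdi libraries (r = -0.02 with naive replicate 3). Genes are not independent replicates, and these values are a description. Rpl22l1 deviated most, at 291, 350 and 120 FPKM in naive replicates 1 to 3 and at 132, 317 and 287 FPKM in TCR replicates 1 to 3. Rps26 moved the other way, at 1432, 1718 and 2232 FPKM in naive and 2630, 1660 and 1861 FPKM in TCR cells. Of the 78 genes, 42 were lower and 18 higher in all 3 of these deviations. The deviations moved with the GC content of the transcript in 3 of the 4 libraries (r = 0.38 over the 78 genes in naive replicate 3, 0.37 in TCR replicate 1 and 0.495 in CTL in IL-2 replicate 2). In CTL in IL-2 replicate 3 r was 0.19 over these genes and -0.06 over other genes, where the former 3 had 0.42, 0.40 and 0.61. What set these libraries apart was not tested, and each result is given with and without them where they change it. For CTL in IL-2 this leaves only replicate 1, so there only effect sizes are given.

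**Figure D1:**
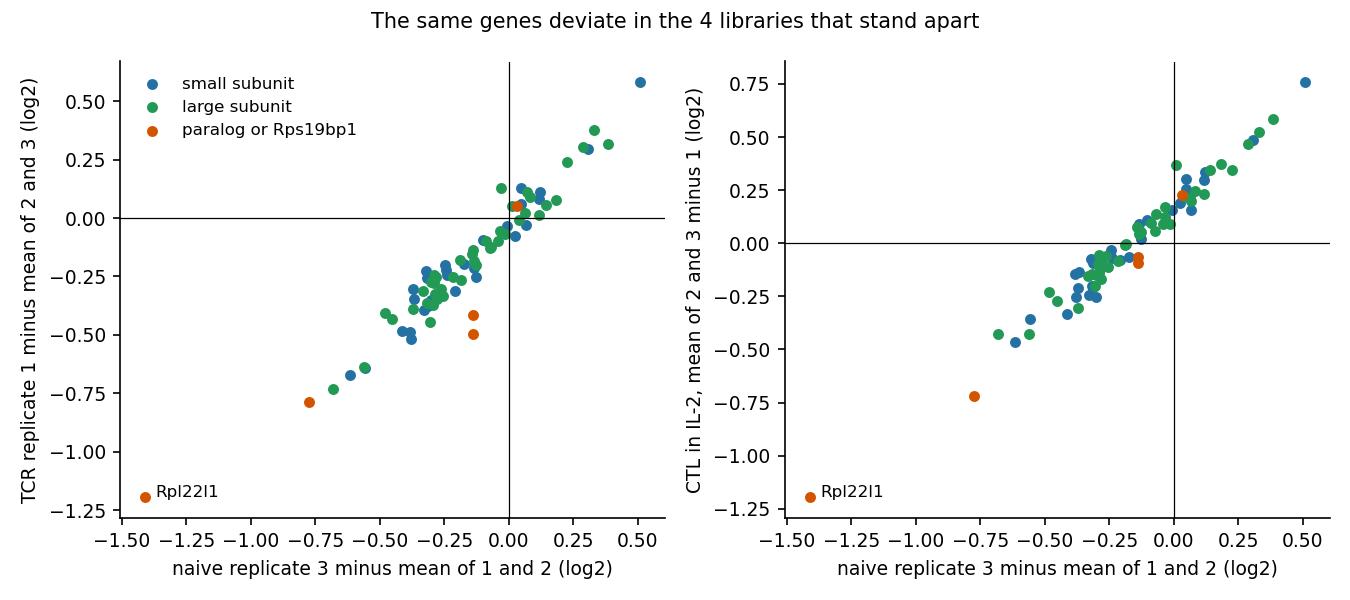
Each point is one of the 78 ribosomal protein genes, and both axes are differences in log2(FPKM + 0.1) between replicates of a group: naive replicate 3 against the mean of replicates 1 and 2 on the x axis, TCR replicate 1 (left) or CTL in IL-2 replicates 2 and 3 (right) on the y axis. The points lie along a line (r = 0.96 and 0.98), with Rpl22l1 lowest on both axes.

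All 8 CD8 T cell markers looked for, among them Cd8a, Cd8b1 and Cd3e, were present in every group, with a summed level of 4749 to 5183 FPKM in naive and 1310 to 1505 FPKM in TCR libraries. B cell markers summed to 20.9 to 26.3 FPKM in naive and 4.63 to 7.12 FPKM in TCR libraries. Of 7 dendritic cell markers only Batf3, H2-Ab1 and Cd74 were in the first table, and Flt3, Itgax, Xcr1 and Clec9a were not. The 3 present summed to 6.31 to 24.7 FPKM in naive and 67.8 to 115 FPKM in TCR libraries. Their sum alone does not show that dendritic cells were there. Cd4 was not in the first table. With PI3Kdi the dendritic cell markers summed to 17.7 to 26.9 FPKM, below all TCR libraries, and the B cell markers to 3.30 to 4.58 FPKM. In the second table the CD8 T cell markers summed to 2417 to 2762 FPKM in CTL in IL-2 and 3154 to 3330 FPKM without, and the dendritic cell markers overlapped, at 43.4 to 64.9 and 49.8 to 72.1 FPKM. There Cd79b, the 1 of 7 B cell markers in the table, was at 2.74 to 6.30 FPKM in IL-2 and 10.8 to 20.6 FPKM without, Itgam, the 1 of 7 myeloid markers, at 0.20 to 0.39 and 3.89 to 4.46 FPKM, and Cd4 at 0.05 to 0.39 and 0.92 to 1.92 FPKM. Of the 4 genes on the stroma list only Pecam1 was present and no collagen gene, so it does not measure stroma by itself. It was at 55.6 to 66.0 FPKM in naive, 2.25 to 3.49 in TCR and 4.73 to 8.20 FPKM with PI3Kdi. In CTL it was at 22.5 to 30.5 FPKM in IL-2 and 50.3 to 62.4 FPKM without. The part of all these markers in the results below was not tested. These are bulk samples scaled per library, so the levels are relative and do not show whether mRNA per cell rose or fell. A change in RNA per cell and a change in the number of cells cannot be told apart.

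Ribosomal protein mRNA made up a larger share of all FPKM in naive than in activated cells, and a smaller share in CTL in IL-2 than without. The 81 genes held 23.5%, 26.8% and 23.2% of all FPKM in naive replicates 1 to 3 (24.5% ± 2.02, SD, n = 3) and 18.2%, 18.7% and 20.3% in TCR replicates 1 to 3 (19.1% ± 1.06). With PI3Kdi the share was 19.8%, 20.1% and 20.3% (20.1% ± 0.245). The naive libraries all lay above the activated ones. The TCR and TCR + PI3Kdi libraries overlapped, although within each of the 3 pools the share was higher with the inhibitor, least so in replicate 3. In the second table the share was 15.8%, 15.9% and 15.3% in CTL in IL-2 (15.7% ± 0.321) and 20.3%, 20.2% and 21.3% without IL-2 (20.6% ± 0.616), again without overlap. Removal of IL-2 thus gave a 1.31-fold larger share, and TCR activation 0.777 times the naive share. Leaving out the 4 libraries that stand apart gave 1.30 and 0.774. In summed FPKM, without dividing by the total, the ratios were 1.20 and 0.814.

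**Figure D2:**
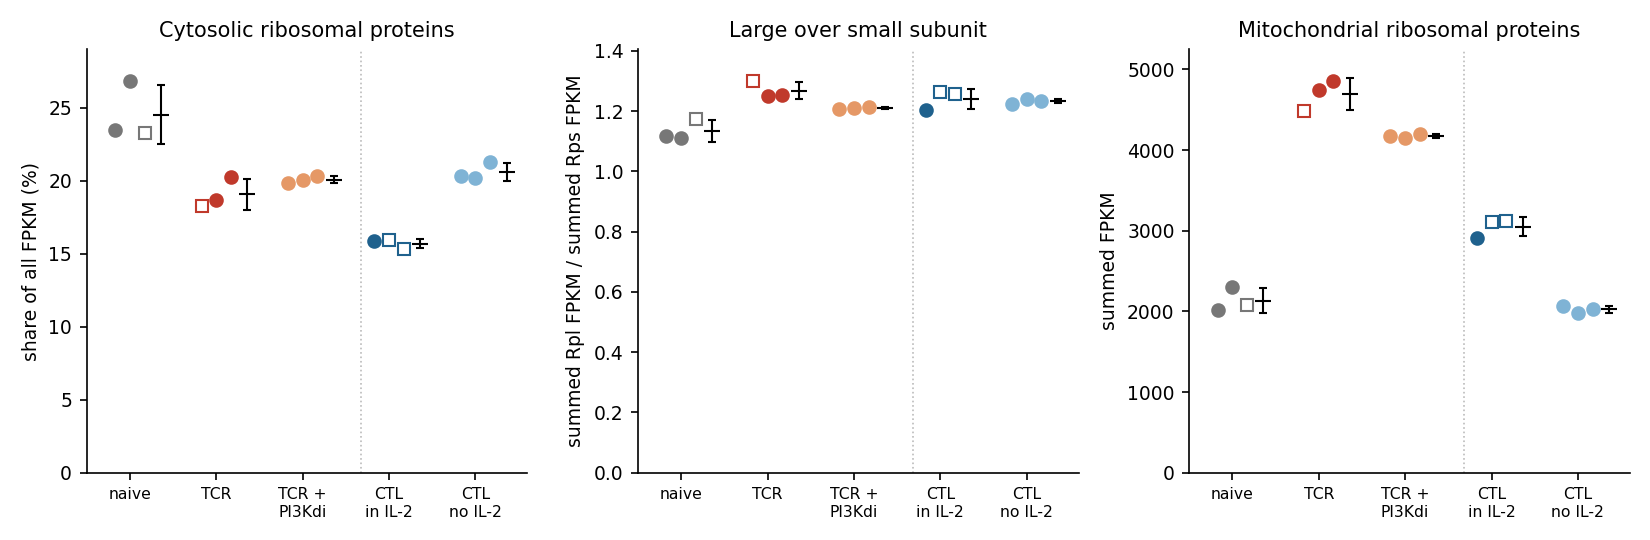
Points are libraries, with open squares for the 4 that stand apart, and bars are the mean ± SD of 3. From left to right the y axes give the share of all FPKM held by the 81 genes (%), the summed FPKM of the canonical large subunit genes over that of the small subunit genes, and the summed FPKM of 76 mitochondrial ribosomal protein genes. The share falls from 24.5% in naive to 19.1% in TCR cells while the mitochondrial sum rises from 2134 to 4696 FPKM, and the dotted line parts the tables.

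Levels between genes are compared here as FPKM, which is per length. The median level of the 81 genes, taken over group means, was 1335 FPKM in naive, 1114 in TCR, 1111 in TCR + PI3Kdi, 942 in CTL in IL-2 and 1095 FPKM in CTL without IL-2, against medians of about 11.2 to 12.2 FPKM over all genes of the tables. In naive cells 53 of the 81 genes were at or above 1000 FPKM, and 63 to 67 of the 100 most abundant genes of each naive library were ribosomal protein genes. In CTL in IL-2 this was 47 to 51. The highest in naive cells were Rplp1 at 4797 FPKM ± 507, an acidic protein of the stalk that recruits elongation factors, and Rpl12 at 3001 ± 486, at the base of that stalk. They were followed by Rps18 at 2814 ± 536, Rps15 at 2761 ± 308 and Rps24 at 2649 ± 306 FPKM. From Rpl12 down, neighbours in this order differed by less than their SDs. At the other end, Rpl30, Rpl34 and Rps27 stood at 2.61 to 3.32, 2.71 to 4.63 and 5.90 to 8.66 FPKM over the naive libraries although each is a canonical protein. These genes have near-identical copies elsewhere in the genome, so how reads were shared between copies is uncertain and their values are best read as such. Rps19bp1 followed at 12.6 ± 0.853 and Rps27l at 30.9 ± 8.66 FPKM.

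The balance between the subunits differed between naive and TCR cells. Summed over the canonical genes, large over small subunit FPKM was 1.12, 1.11 and 1.17 in naive replicates 1 to 3 and 1.30, 1.25 and 1.25 in TCR replicates 1 to 3, so the groups did not overlap. With PI3Kdi it was 1.21 ± 0.00412, below every TCR library and so lower in all 3 pairs of libraries from the same pool. In CTL the ratio was 1.24 ± 0.0330 in IL-2 and 1.23 ± 0.00769 without, and these overlapped. The median log2 fold change of TCR against naive cells was -0.48 over the 31 small subunit genes and -0.16 over the 45 large subunit genes.

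Relative to the library, more ribosomal protein mRNAs were lower than higher after TCR activation, by amounts that were small beside those of other genes. By limma on log2(FPKM + 0.1) with Benjamini-Hochberg adjustment over all genes, 35 of the 81 genes were lower and 12 higher at an adjusted p under 0.05. Of all genes tested 39.8% were lower and 40.9% higher, so the share of members that were lower (43.2%) was near the background and the share that were higher (14.8%) was below it. The median log2 fold change of the 81 genes was -0.26, a fold of 0.837, against 0.01 over all genes. Over both directions 58% of members passed, where 80.8% of all genes did. Past a 2-fold limit there were 5 genes higher, where 25% of all genes were, and 1 lower, where 23.7% were (48.7% in either direction), and the middle 50% of the members' log2 fold changes ran from -0.55 to 0.05, against -0.94 to 1.00 in all genes. With a term for the libraries that stand apart, 42 genes were lower and 15 higher.

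**Figure D3:**
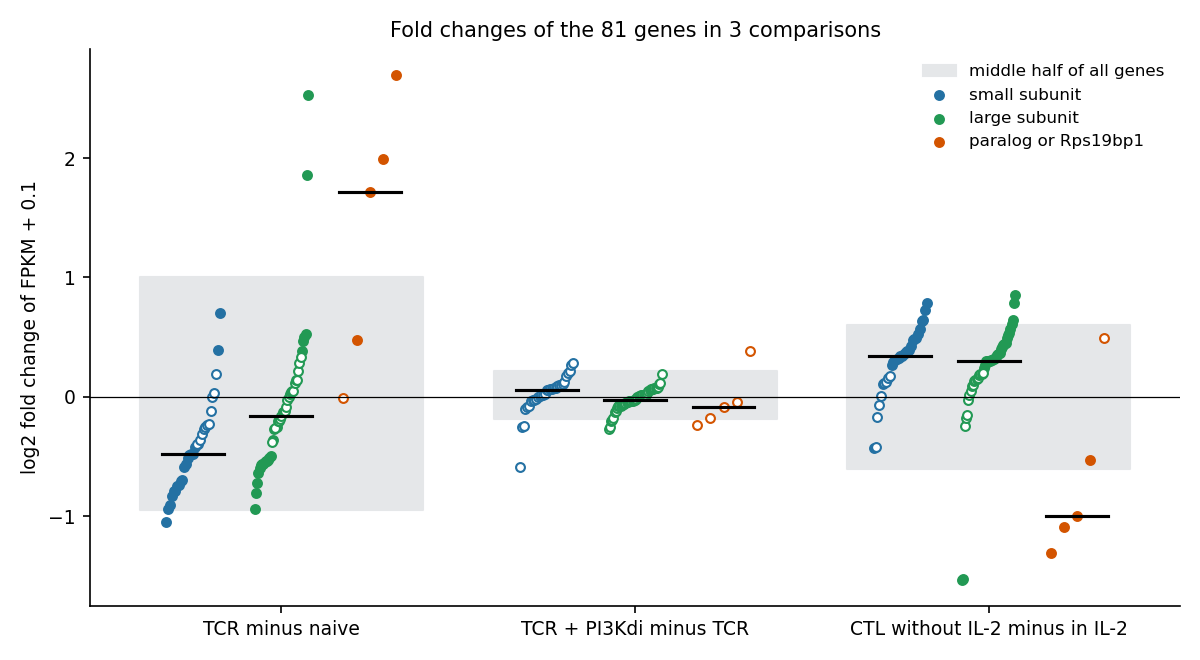
Each point is a gene, with the log2 fold change of FPKM + 0.1 on the y axis, for TCR against naive, TCR + PI3Kdi against TCR, and CTL without against in IL-2. Filled points passed an adjusted p under 0.05, black lines are medians and grey boxes span the middle 50% of all genes in that table. In the left comparison the small subunit median is -0.48, in the middle no point is filled, and on the right the subunit medians are 0.34 and 0.30.

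The largest falls were in genes of both subunits. Rps15a, a small subunit protein, was at 243, 305 and 219 FPKM in naive and 103, 129 and 137 FPKM in TCR cells. All activated libraries were below all naive ones, and the fall, with a log2 fold change of -1.05 (SE 0.13, adjusted p = 1.7e-05), was the one past 2-fold. That number was 3 without naive replicate 1 and 0 without naive replicate 2. Rps24, which takes part in the maturation of the small subunit RNA, was at 2323, 2930 and 2694 FPKM in naive and 1412, 1288 and 1422 FPKM in TCR cells (log2 fold change -0.94, SE 0.11, adjusted p = 1.31e-05). Rpl17, which lines the exit tunnel for the new protein, fell from 2327 ± 370 to 1203 ± 118 FPKM. Rps7 and Rps29 followed, with log2 fold changes of -0.90 and -0.83. Of the 17 genes on the list in which mutations cause Diamond-Blackfan anaemia, among them Rps24, Rps7, Rps29 and Rps19, 9 fell (52.9%, against 43.2% of the 81 genes and 39.8% of all genes) and none rose.

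By role, the P-stalk proteins Rplp1 and Rplp2 fell, with log2 fold changes of -0.60 (adjusted p = 0.00152) and -0.57 (adjusted p = 0.00128). Rplp0, on which both are anchored, was at 2504 ± 359 in naive and 2235 ± 240 FPKM in TCR cells and did not pass (adjusted p = 0.288). Of the 5S ribonucleoprotein pair, which binds the p53 ligase Mdm2 when assembly fails, Rpl5 fell from 748 ± 139 to 506 ± 70.2 FPKM (log2 fold change -0.56, adjusted p = 0.00295), and Rpl11 was at 1534 ± 173 and 1402 ± 67.3 FPKM (adjusted p = 0.31). Of the exit tunnel proteins Rpl17 and Rpl39 fell, and Rpl4, at 2265 ± 227 and 2297 ± 132 FPKM, did not pass (adjusted p = 0.859). Rps6, the protein phosphorylated by the S6 kinases downstream of mTORC1, was at 592, 736 and 715 FPKM in naive and 501, 464 and 484 FPKM in TCR cells. The groups did not overlap and the log2 fold change was -0.49 (SE 0.10, adjusted p = 0.00065).

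The genes that rose most were the paralogs Rps27l and Rpl7l1, Rps19bp1 and the scarcely detected Rpl30 and Rpl34. Rps27l, a p53-responsive relative of Rps27, was at 36.5, 35.3 and 20.9 FPKM in naive and 136, 233 and 235 FPKM in TCR cells. Its log2 fold change of 2.70 (SE 0.23, adjusted p = 6.88e-07) was the largest of the 81. Rpl7l1, a relative of Rpl7 that works in large subunit assembly, was at 35.4, 36.6 and 32.7 FPKM in naive and 91.0, 126 and 131 FPKM in TCR cells (log2 fold change 1.71, SE 0.12, adjusted p = 1.53e-07). Rps19bp1 rose from 12.6 ± 0.853 to 51.0 ± 8.54 FPKM (log2 fold change 1.99), Rpl34 from 3.36 to 19.6 ± 4.50 FPKM (2.53) and Rpl30 from 2.97 ± 0.355 to between 10.8 and 11.2 FPKM (1.86). These 5 are the genes that rose past 2-fold, and they are 5 of the 6 genes below 100 FPKM in naive cells, the other being Rps27. Of the other paralogs, Rpl36al rose less (log2 fold change 0.48, adjusted p = 0.000554) and Rpl22l1 did not pass (-0.01, adjusted p = 0.986). A smaller rise was seen in abundant canonical genes. Rps2, at the mRNA entry of the small subunit, was at 1133, 1428 and 1384 FPKM in naive and 2248, 1978 and 2185 FPKM in TCR cells (log2 fold change 0.71, SE 0.12, adjusted p = 0.000176). Rpl7a, Rpl29, Rpl41, Rps12 and Rpl24 rose too, with log2 fold changes from 0.39 to 0.52.

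**Figure D4:**
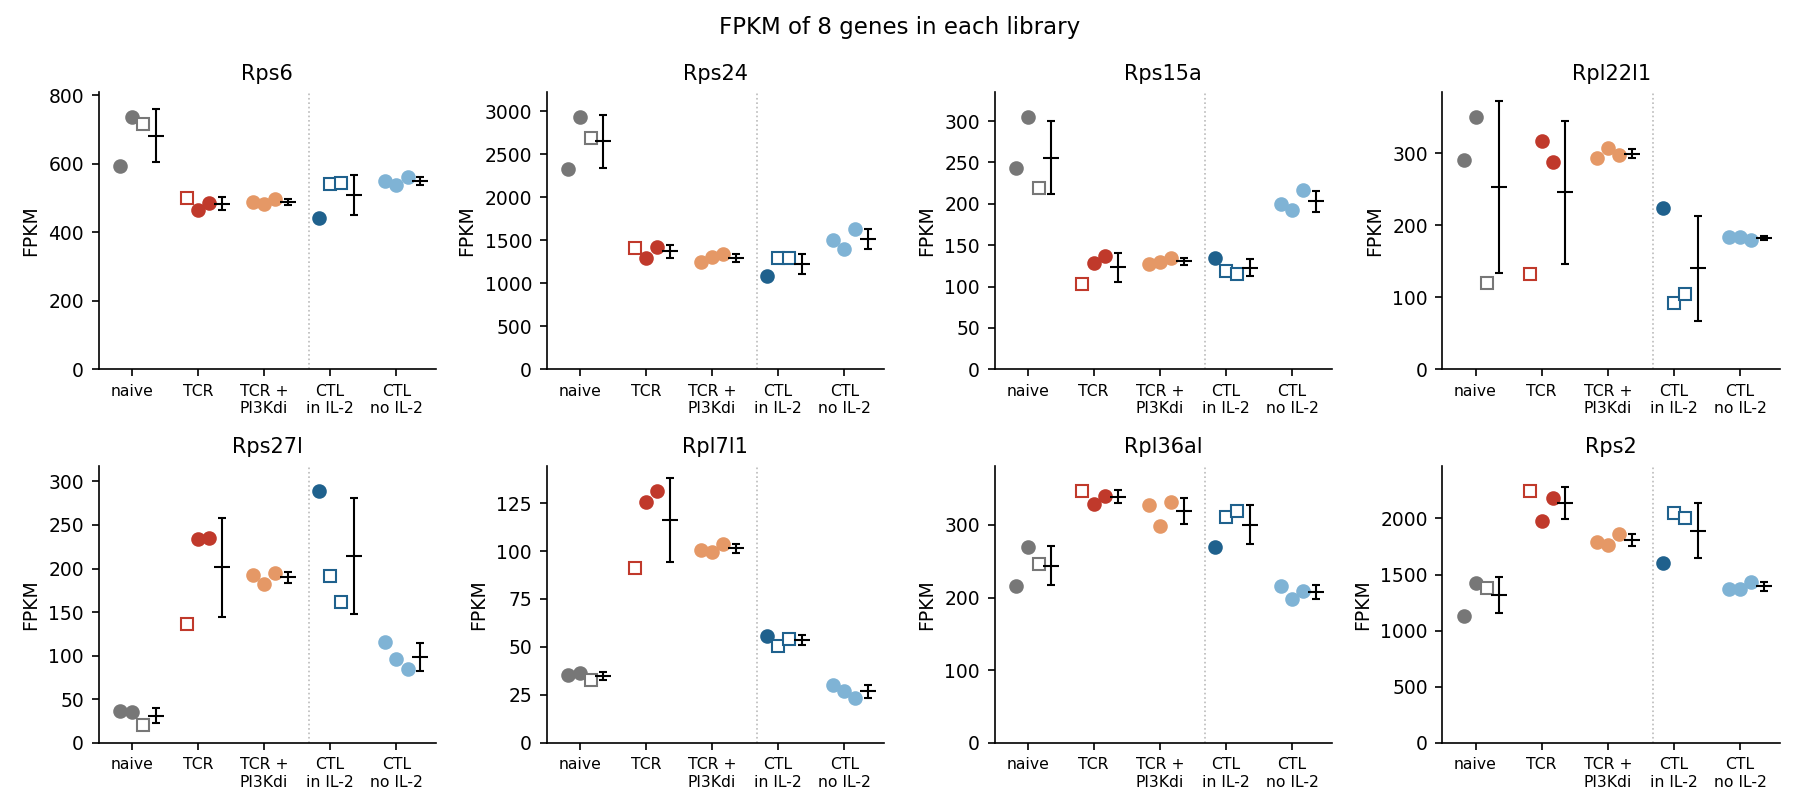
FPKM (y axis) of 8 genes in each library, with the mean ± SD of 3 beside each group and open squares for the 4 libraries that stand apart. Rps6, Rps24 and Rps15a fall from naive to TCR cells, Rps27l, Rpl7l1, Rpl36al and Rps2 rise, and the Rpl22l1 values of the open squares lie between 91.6 and 132 FPKM, below the filled points of their groups.

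To ask which genes moved unevenly, the log2 values of each library were centred on the median of the 81 genes and tested again. By construction about as many genes then lie above as below, so only the total is informative: 54 of 81 genes (66.7%) moved relative to the other ribosomal protein genes, 28 up and 26 down, where 78.2% of all genes passed, 47.8% up and 30.3% down. With the mean as centre the split was 18 up and 35 down. Without TCR replicate 2 the number down was 17. The farthest from the centre were Rps27l (relative log2 fold change 3.00), Rpl34 (2.82), Rps19bp1 (2.29), Rpl30 (2.16) and Rpl7l1 (2.01). Among the 75 genes above 100 FPKM in naive cells the SD of the log2 fold changes was 0.405, against 1.89 over all genes, with a typical SE of 0.13 for one gene.

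No ribosomal protein mRNA passed the test for the inhibitor. With PI3Kdi 0 of 81 genes differed from TCR cells at an adjusted p under 0.05 in limma, and 0 at an unadjusted p under 0.05, where 17.5% of all genes passed the adjusted threshold (9.35% higher, 8.19% lower) and 31.5% the unadjusted one. Past 2-fold 5.14% of all genes passed, 3.04% higher and 2.1% lower. Relative to the other members 0 passed as well, against 11.3% of all genes (6.1% up, 5.16% down). The libraries of both groups did not overlap for 2 members that were higher and 7 that were lower, against 18.1% and 18.6% of all genes. The median log2 fold change was 0.01. A missed threshold does not show that the groups are alike, so the intervals matter: for 72 of the 81 genes the 95% interval of the fold lay within 1.5-fold in either direction, and for 79 within 2-fold. The exceptions to the latter were Rps27 and Rpl22l1. Rps6 was at 488, 481 and 498 FPKM with PI3Kdi, with a log2 fold change of 0.02 and a 95% interval from -0.20 to 0.23. The lowest estimate was that of Rps27, at 4.21 ± 1.07 against 6.58 ± 2.35 FPKM (log2 fold change -0.59, adjusted p = 0.173), and the highest that of Rpl22l1, at 299 ± 6.72 against 245 ± 99.5 FPKM (0.39, adjusted p = 0.539). Next lowest were Rpl35, Rps26, Rpl30 and Rps2, with log2 fold changes from -0.27 to -0.24, and next highest Rps20, Rps4x, Rps21 and Rps13, from 0.20 to 0.29.

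TCR replicate 1 is a library that stands apart, and the inhibitor group holds none. With a term for such libraries, 3 genes were lower with the inhibitor: Rps27l (log2 fold change -0.30, adjusted p = 0.00489), Rpl7l1 (-0.28, adjusted p = 0.0297) and Rps19bp1 (-0.33, adjusted p = 0.0392). All 3 belong to the 5 genes past 2-fold on activation and none is a canonical ribosomal protein. Without the libraries apart the same 3 passed, without TCR replicate 1 alone 2 genes passed, and without TCR replicate 2 there was 1. With PI3Kdi the FPKM of Rps27l (192, 183 and 195) and of Rpl7l1 (101, 99.7 and 104) lay below those of TCR replicates 2 and 3 and above that of TCR replicate 1. Rps19bp1, at 42.7, 38.7 and 47.6 FPKM with PI3Kdi, lay below TCR replicates 2 and 3 too, and on both sides of TCR replicate 1 at 41.7 FPKM. Against naive cells, activation with the inhibitor gave 12 genes higher and 36 lower, in a table where 40.1% were higher and 39% lower, with a median log2 fold change of -0.23 (79.1% of all genes passed in either direction). Past 2-fold 5 were higher and 1 lower, against 23.6% and 21.3% of all genes (45% in either direction). This comparison shares its naive libraries with that of TCR cells. Its largest falls were Rps24, Rpl17, Rps15a, Rpl12 and Rps27, from -1.02 to -0.86, and its largest rises Rps27l, Rpl34, Rps19bp1, Rpl30 and Rpl7l1, from 2.66 to 1.54.

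In CTL most ribosomal protein mRNAs were higher after IL-2 removal, again relative to the library. In limma 48 of the 81 genes were higher and 7 lower at an adjusted p under 0.05, so 59.3% of members were higher where 35.2% of all genes were, and 8.64% lower where 36.6% were (71.9% in either direction). The median log2 fold change was 0.30, against -0.00 over all genes. No gene was higher past 2-fold in limma (14.3% of all genes were), and 5 were lower (13.9% of all genes, 28.2% in either direction). With a term for the libraries that stand apart the numbers were 53 and 7, and with those libraries left out, so that only replicate 1 stands for CTL in IL-2, 51 and 7. With both the replicate number and the term for those libraries in the fit, 16 were higher and 5 lower, and without CTL in IL-2 replicate 1 the number lower was 13.

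Rpl37a, a large subunit zinc-binding protein, rose most. It was at 586, 515 and 537 FPKM in IL-2 and 986, 954 and 1011 FPKM without, with no overlap (log2 fold change 0.85, SE 0.09, adjusted p = 1.78e-05). Rps15a, the gene that fell most on activation, was at 135, 119 and 115 FPKM in IL-2 and 200, 193 and 217 FPKM without (0.72, SE 0.09, adjusted p = 5.41e-05). Rps21 rose from 507 ± 79.2 to 871 ± 52.8 FPKM, Rpl39 from 525 ± 93.9 to 897 ± 32.4 FPKM and Rps4x from 1474 ± 205 to 2297 ± 107 FPKM. Rplp0 and Rplp2 rose (0.40 and 0.37) and Rplp1 did not pass, at 2616 ± 318 and 2979 ± 85.5 FPKM. Rpl5 rose from 400 ± 23.7 to 509 ± 21.1 FPKM, and Rpl11 was at 1395 ± 135 and 1408 ± 33.5 FPKM (adjusted p = 0.882). Rps6 was at 441, 540 and 544 FPKM in IL-2 and 549, 536 and 560 FPKM without, which overlap (0.12, adjusted p = 0.31). With the term for the libraries apart, which leaves replicate 1 at 441 FPKM for CTL in IL-2, its log2 fold change was 0.32.

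The 7 genes that fell were Rpl30, Rpl34, Rps19bp1, Rps27l, Rpl7l1, Rpl36al and Rps2. Rps27l was at 289, 191 and 162 FPKM in IL-2 and 116, 95.9 and 84.1 FPKM without, with a log2 fold change of -1.09 (SE 0.20, adjusted p = 0.000778). Rpl7l1 was at 55.9, 50.6 and 54.4 FPKM in IL-2 and 26.9 ± 3.37 FPKM without (SE 0.10, 95% interval of the log2 fold change -1.23 to -0.77, adjusted p = 1.85e-05). Rps19bp1 was at 22.0 ± 2.56 and 8.80 ± 1.11 FPKM, Rpl34 at 8.52 ± 2.24 and 2.84 ± 0.291 FPKM, and Rpl30 at 5.73 ± 0.837 and 1.93 ± 0.435 FPKM. Rps2 was at 1889 ± 245 and 1394 ± 38.3 FPKM (-0.43, adjusted p = 0.00754). With the term for the libraries apart, which leaves replicate 1 for CTL in IL-2, its log2 fold change was -0.21. The number past 2-fold was 3 in place of 5 without CTL in IL-2 replicate 1 or without CTL without IL-2 replicate 3. Relative to the other ribosomal protein genes 16 were up and 13 down, together 35.8% of the 81 where 70.7% of all genes passed, 25.6% up and 45.1% down. The upward number was not stable. It was 35 without CTL in IL-2 replicate 1 and 9 without its replicate 2 or 3. Without replicate 2 or 3 of CTL without IL-2 it was 10.

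The activation and IL-2 comparisons use different libraries, so their values can be set side by side. Of the 35 genes lower after TCR activation, 26 were higher without IL-2 (74.3%), 9 did not pass and none was lower. Of the 4330 genes of both tables that were lower after activation 65.9% were higher without IL-2, and 59.3% of all 81 members were. Of the 12 genes higher after activation, 7 were lower without IL-2 (58.3%, against 70.2% of the 4265 genes of both tables that were higher after activation), 3 were higher (Rpl24, Rpl29 and Rps12) and 2 did not pass (Rpl41 and Rpl7a). The members' shares are thus near those of genes at large. Another 15 genes passed in neither comparison, among them Rpl4, Rpl11, Rpl10 and Rps25. Across the 81 genes the log2 fold changes of both comparisons had r = -0.83 and Spearman's rho = -0.47, and across the 75 genes above 100 FPKM in naive cells r = -0.49 and rho = -0.36. These are correlations over genes that share libraries, and libraries that stand apart are on both sides.

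**Figure D5:**
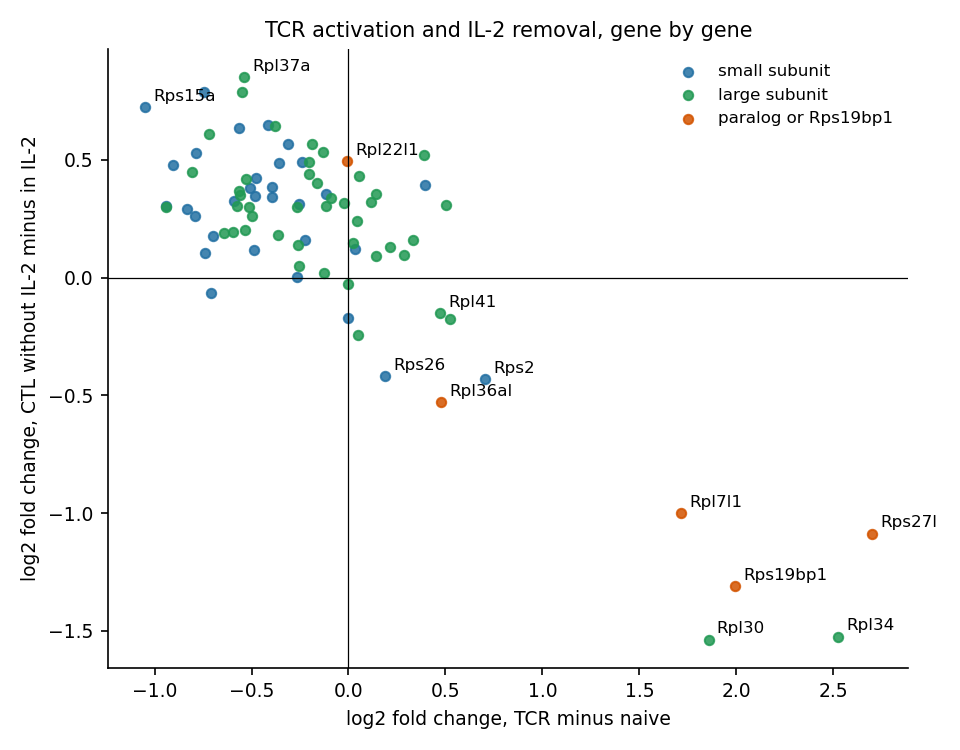
Each point is a ribosomal protein gene, with the log2 fold change of TCR against naive cells on the x axis and of CTL without against in IL-2 on the y axis. Most canonical genes lie in the upper left, and Rps27l, Rpl34, Rps19bp1, Rpl30 and Rpl7l1 lie apart at the lower right, with x from 1.71 to 2.70.

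Of the 3 paralogs set against the parent gene they resemble, Rpl7l1 and Rpl36al changed their share of the pair. That of Rpl22l1 overlapped between naive and TCR cells and between the CTL groups. No share was computed for Rps27l. Rpl7l1 was 1.96%, 1.61% and 1.96% of the summed FPKM of Rpl7l1 and Rpl7 in naive replicates and 5.23%, 5.82% and 5.74% in TCR cells, while Rpl7 itself was at 1883 ± 311 and 1948 ± 265 FPKM. In CTL the share was 3.80% ± 0.0653 in IL-2 and 1.45% ± 0.231 without. Rpl36al was 22.8% ± 2.25 of its sum with Rpl36a in naive, 32.1% ± 2.72 in TCR, 37.5% ± 3.85 in CTL in IL-2 and 23.4% ± 0.666 in CTL without IL-2. In neither pair did the ranges of naive and TCR libraries, or of the CTL groups, overlap. With PI3Kdi the shares were also below those of all TCR libraries, at 4.68%, 4.68% and 4.82% for Rpl7l1 and at 29.89%, 27.3% and 29.96% for Rpl36al, where the lowest TCR library was at 30.06%. These shares were not tested. Rpl22l1, which binds RNA as Rpl22 does, was 56.0% ± 10.3 of its sum with Rpl22 in naive and 58.0% ± 8.10 in TCR cells, and the libraries that stand apart, at 44.1% and 49.0%, were the lowest of their groups, as were those of CTL in IL-2 at 42.3% and 46.6%. With PI3Kdi it was 65.2% ± 0.333, above all TCR libraries. Its log2 fold change without IL-2 was 0.50 (adjusted p = 0.127, and 0.0469 with the replicate number as a block). With the term for the libraries apart, where replicate 1 alone stands for CTL in IL-2, it was -0.30. Of the other parent genes Rps4x passed after activation (log2 fold change -0.42, adjusted p = 0.046), but not with the replicate number as a block (adjusted p = 0.0535), and Rpl39 passed (-0.55, adjusted p = 0.0424), while Rpl3, Rpl10, Rpl22 and Rpl36a did not pass.

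Of the ribosomal proteins with names outside the rule, Fau fell after activation and both Fau and Gnb2l1 rose without IL-2. Fau, whose product is cut into ubiquitin-like Fubi and Rps30, was at 901, 1103 and 818 FPKM in naive and 439, 523 and 587 FPKM in TCR cells (log2 fold change -0.86, adjusted p = 8.56e-05), and rose without IL-2 from 532 ± 37.9 to 931 ± 63.9 FPKM. Gnb2l1, a scaffold on the head of the small subunit, rose without IL-2 from 1392 ± 49.5 to 1848 ± 33.8 FPKM (0.41, adjusted p = 0.0025).

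Genes that make ribosomes rose on activation and fell without IL-2, where the median ribosomal protein gene had log2 fold changes of -0.26 and 0.30. Of 59 ribosome biogenesis genes in the table, 59 rose after TCR activation (100%, against 40.9% of all genes) with a median log2 fold change of 1.64. Without IL-2, 56 fell (94.9%, against 36.6% of all genes) and 1 rose, with a median of -1.33. With PI3Kdi 17 fell (28.8%, against 8.19%) and none rose (median -0.19), where no ribosomal protein gene passed. The lists were not tested against each other. Nucleolin (Ncl) rose from 102 ± 4.02 to 844 ± 85.7 FPKM on activation. Of the 17 chaperones and importers of ribosomal proteins in the table, 15 (88.2%) rose after activation, led by Ipo5 (2.76) and Npm1 (2.70), and 16 (94.1%) fell without IL-2. Of the 76 mitochondrial ribosomal protein genes, 74 (97.4%) rose and 1, Mrpl24, fell after activation, 9 (11.8%) fell with PI3Kdi, and 62 (81.6%) fell and 2 rose without IL-2. Other mRNAs listed as having a TOP motif, 28 in all, were mixed: 18 (64.3%) rose and 6 (21.4%) fell after activation. Of these Tpt1, at 4777 ± 682 and 1534 ± 171 FPKM, fell most (-1.64) and Pabpc4 rose most (2.81). Without IL-2 8 of the 28 rose (28.6%, against 35.2% of all genes) and 11 fell (39.3%, against 36.6%). Of the 20 on this list with a start sequence, 5 (25%) had a pyrimidine run exactly at the start and 8 (40%) within 5 bases.

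Among 20 regulators of TOP mRNA and mTORC1, 10 rose after activation (50%, against 40.9% of all genes) and 4 fell (20%, against 39.8%). Pdcd4, which blocks the initiation factor eIF4A, fell from 144 ± 4.18 to 12.6 ± 2.92 FPKM, was higher with PI3Kdi at 47.3 ± 16.9 FPKM (log2 fold change 1.86, adjusted p = 0.000274) and rose in CTL without IL-2 from 13.3 ± 4.50 to 127 ± 3.99 FPKM. Eif4ebp1, a translation repressor inactivated by mTORC1, rose from 4.64 ± 0.602 to 61.2 ± 34.1 FPKM and was lower with PI3Kdi (-1.15, adjusted p = 0.0216). Larp1 rose after activation (1.76, adjusted p = 1.67e-08) and fell without IL-2 from 121 ± 14.3 to 33.2 ± 1.91 FPKM. With PI3Kdi 1 of the 20 rose (5%, against 9.35% of all genes) and 3 fell (15%, against 8.19%).

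Properties of the transcripts that the rule did not use separated the genes little. Over the 81 genes the log2 fold change of TCR against naive cells had r = 0.07 with transcript GC content and r = -0.02 with log2 transcript length, and that of IL-2 removal r = -0.15 and 0.02. With the naive level the TCR fold change had r = -0.73 over all 81 genes and -0.34 over the 75 above 100 FPKM, and the naive values enter both quantities.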

How the data were processed

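RNA was sequenced by the study as paired-end stranded mRNA libraries from 300 ng of RNA. Per the study's methods and the submitters' processing notes, the authors aligned reads to mm10 with STAR 2.5.2b, counted them per RefSeq gene with Subread 1.5.1, removed genes of low count, scaled with edgeR's TMM factors and deposited FPKM over the summed exon length. The same is assumed for the CTL table. Read totals per library are not given in the sources used here, so no counting error is stated. Here, 1039 blank cells of the first table were read as 0, and limma 3.58.1 (R 4.3.3) was fitted to log2(FPKM + 0.1) with an intensity trend, for the 9 libraries of the first table in one fit and the 6 CTL libraries in another, in place of the authors' count-based voom. Fold changes on this scale are understated for low genes. Replicates of the first table were separate pools. For CTL no source used here states this, and p-values measure only the spread between these samples. Same-numbered libraries came from the same pool in the first table. Their deviations correlated at 0.203 to 0.506 for TCR and TCR + PI3Kdi, at a mean of -0.032 for naive and TCR, and, by replicate number, at 0.123 to 0.257 for the CTL groups. Deviations of single libraries were taken for genes at 5 FPKM or more. Named genes are the 5 largest rises and falls of each comparison, the 5 farthest from the centre, the 5 highest and lowest in naive cells, genes of fixed roles, and the largest changes of each other list. Other names (such as Rps2, Rpl7a and the genes of small groups) were chosen after their values were seen. The members and lists were chosen with earlier results of these data known. The fits were checked on simulated data.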

Additional observations from a re-analysis of the deposited data

How the results depend on the processing

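Of the alternative values for the counts, medians, sums and motif shares, 455 stayed near the reported value and 64 moved, under a few settings. A limit of 1.5-fold left 6 genes higher and 16 lower for TCR against naive, 5 and 17 for TCR + PI3Kdi against naive, and 8 higher without IL-2, and a 2-fold limit left 5 and 1, 5 and 1, and 0. The genes lower past 2-fold after TCR activation numbered 0 with median scaling, 3 when each library was scaled to a common total and 5 when scaled to the sum of the other genes. For TCR + PI3Kdi against naive they numbered 0 with median scaling, 3 when scaled to the other genes, and 2 with a term for the libraries apart or without them. Without IL-2 they numbered 3 under both scalings to a sum, and 3 genes were higher past 2-fold when scaled to the other genes. That scaling moved the median of all genes by up to 0.21 (log2) and that of the members to -0.43 for TCR, 0.11 for PI3Kdi and 0.52 without IL-2. Scaling to a common total moved the latter pair to 0.087 and 0.43 and the ratios of summed FPKM to 1.05 and 1.31. The members' median less that of all genes stayed between -0.27 and -0.26 for TCR and at 0.31 without IL-2 under these scalings.

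Relative to the other members, the mean as centre gave 18 genes up after TCR. The term for the libraries apart, the same with a replicate block, and leaving those libraries out each gave 3 genes lower with PI3Kdi, with medians of -0.049, -0.046 and -0.056. Relative to the members there were 2 lower with the term and 3 without the libraries. In the IL-2 comparison both settings leave only replicate 1 for CTL in IL-2. The replicate block alone gave 12 genes higher and 32 lower for TCR, 0 and 0 for PI3Kdi, 12 and 34 for TCR + PI3Kdi against naive, and 46 and 8 without IL-2, and changed no count by over 1.5 times. Together with the term for the libraries apart it left the IL-2 comparison to replicate 1 of each CTL group. The median log2 fold change was then 0.32. The log2 fold change of Rpl22l1 without IL-2 turned to -0.30 with the term or without the libraries, and to -0.62 relative to the members. The share of canonical genes with a pyrimidine run was 49.1% within 5 and 89.1% within 30 bases.

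Leaving out each library in turn gave 0 to 3 genes lower past 2-fold for TCR and for TCR + PI3Kdi against naive. It gave 0 to 2 lower with PI3Kdi, with medians from -0.056 to 0.062. Without IL-2 it gave 7 to 13 lower and 3 to 5 lower past 2-fold. Relative to the members it gave 17 to 26 down after TCR, 0 to 1 up and 0 to 1 down with PI3Kdi, and 9 to 35 up without IL-2. For the named genes, 58 alternative values lost and 78 gained the threshold, 4 changed sign with a call (Rpl22l1, above), and 151 changed sign where neither value passed. The settings for the libraries apart, the window of 30 bases and the alternatives for medians were chosen after seeing the data. Why these settings differ was not tested. With 3 libraries a group and no read totals, precision rests on the spread between libraries.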
